A study of Rattus norvegicus with 8 samples.

Results

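The circular RNAs (circRNAs) described here come from the plus strand of the distal end of rat chromosome 1, between positions 278562577 and 278777648 of the assembly Rnor_6.0, a stretch of 215072 bases. They were chosen by position and strand, at a place known from the same data to be rich in abundant circRNAs, and numbered 68 of the 51995 circRNAs in the deposited table. Of these, 67 were joined to each other by shared starts or ends, and the last, from 278608460 to 278648316, shared neither. The table pairs no circRNA with a gene, and no annotation of Rnor_6.0 was used, so the host gene is not named. No genome of this assembly was used either, and no sequences are shown.

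A circRNA forms when a splice donor at the end of an exon is joined backwards to a splice acceptor at the start of the same or an earlier exon, a reaction called back-splicing. On the plus strand, the start of a circRNA is thus the acceptor of its first exon and the end is the donor of its last exon. Circles have no free ends for exonucleases to attack, and many accumulate in the brain. A single gene can give several circles that share an acceptor or a donor.

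The study compared cerebral cortex of 4 sham rats with that of 4 rats 24 h after a moderate traumatic brain injury (mTBI), 1 library per rat. Cortex next to the injury, on the injured side, or its counterpart in sham rats, was taken after saline perfusion in both groups, and its total RNA was depleted of ribosomal RNA. The labels give no strain, age or sequencing batch, and the labelled tissue could not be checked against marker genes because no genes are named. Each value is a back-splice junction level in RPM, that is, reads scaled to a common library size. On the reading that the lowest value in a library stands for 2 reads, the locus held 2895 to 5630 junction reads in each. A value of 0 means that a circRNA was not listed in that library. Where 4 values are given for a group, they stand in the order of replicates 1 to 4. With bulk tissue, fewer cells of a type and less circRNA per cell cannot be told apart.

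The locus was among the strongest sources of circRNA in this cortex. Since its place was chosen as rich in abundant circRNAs, its standing against other loci describes that choice. Joined by shared ends, it ranked second of 16050 loci by mean total and eighth by number of circRNAs. Its summed level was 41.4, 52.8, 71.9 and 53.7 RPM in sham replicates 1 to 4 and 37.4, 61.9, 69.5 and 73.1 RPM in mTBI replicates 1 to 4. Replicate 1 was the lowest library of both groups, and the groups overlapped across nearly their whole range. These totals made up 0.751% to 1.32% of the summed circRNA level of each library. The 3 loci nearest in number of circRNAs, with 64 to 66 each, had mean totals of only 4.23, 5.19 and 8.45 RPM, against 57.7 RPM here.

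The 68 circRNAs used 20 starts and 21 ends. There were 178 start and end pairs with a span from that of the shortest to that of the longest circRNA (99986 bases) of the whole table. Of these pairs, 38.2% were seen. Another 61 pairs would be longer than 99986 bases, so circles of that size could not be judged from this table. At 11 places a start lay 53 to 219 bases before an end, close enough to be the edges of a single exon. Among these pairs were 278679022 to 278679115, 278731694 to 278731755 and 278749751 to 278749829. Long circles were common, with 42.6% of the 68 spanning over 50000 bases, against 10.8% in the whole table, and a median span of 42546 bases against 12157. The shortest, from 278601852 to 278603881, spanned 2030 bases and appeared in only 2 libraries, sham replicate 1 (0.0517 RPM) and mTBI replicate 3 (0.0651 RPM). The longest, from 278679022 to 278777648, spanned 98627 bases and was listed at 0.0257 RPM in mTBI replicate 2 only.

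For description, the circles were split into 2 sets at 278661960, the last end joined to the most used start. In the first, 31 circRNAs ended at or before 278661960, and in the second, 37 circRNAs ended at 278679115 or later. No start before 278639502 was joined to an end of the second set. The sets are not fully separate, since the starts 278639502 and 278645631 were joined to ends of both, at low levels. From the most used start, 278580846, the nearest such end would give a span of 98270 bases, just within the longest in the table, and the others would exceed it. The first set held 22.9 to 30.6 RPM per library, and the second 14.4 to 42.4 RPM. Second-set totals were lowest in mTBI replicate 1 (14.4 RPM) and sham replicate 1 (18.0 RPM), and only in these 2 libraries did the first set hold the larger part of the locus.

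**Figure D1:**
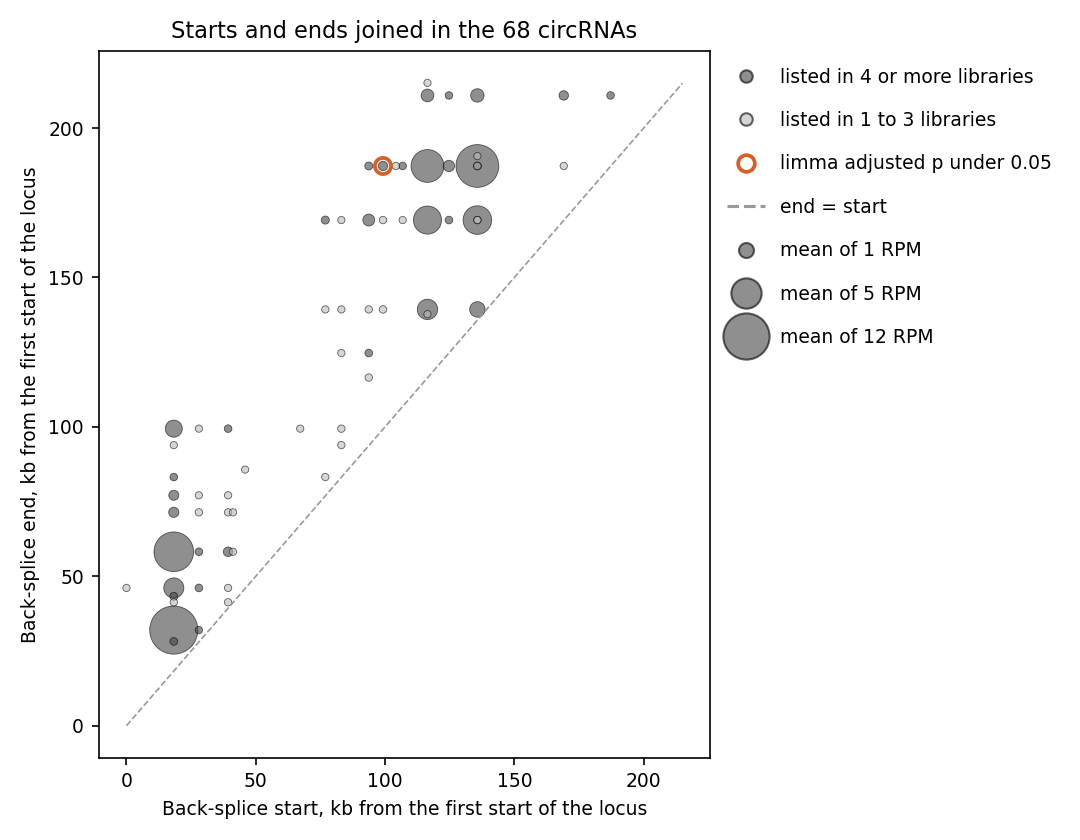
Each circle is a circRNA of the locus, placed by its back-splice start (x axis) and end (y axis), both in kb from the first start of the locus, with area growing with mean RPM over 8 libraries. The 31 circRNAs of the first set lie at lower left and the 37 of the second at upper right, and the columns and rows of circles are shared starts and ends.

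A few members carried most of the signal. The 18 circRNAs listed in all 8 libraries held 97.0% of the RPM of the locus, and the 10 with the highest means, each averaging at least 1 RPM, held 90.5% to 94.3% in each library. At the other extreme, 34 circRNAs were listed in fewer than 4 libraries, 18 of them in 1 library, with no value above 0.156 RPM and 0.564% of the RPM together. The 3 starts 278580846, 278698312 and 278679022 gave 93.6% to 97.8% of the total in each library, while the 3 leading ends gave 62.0% to 71.1%. In distance from the first start these 3 starts lie at 18.3, 135.7 and 116.4 kb, and they are called by these distances below.

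The 18.3 kb start (278580846) was the most used, with 11 circRNAs. Its summed level was 22.8, 25.6, 30.0 and 24.3 RPM in the sham animals and 22.6, 23.5, 28.6 and 30.0 RPM in the injured animals. It was thus nearly even over animals, with a coefficient of variation of 12.2%, close to the median of 10.99% over the 130 starts of the table that average at least 5 RPM. Its leading circle, from 278580846 to 278594581 (18.3 to 32.0 kb), was the most abundant of the locus. It stood at 11.6, 13.3, 15.1 and 11.6 RPM in the sham animals and 11.1, 11.99, 14.6 and 15.1 RPM in the injured animals, so that both groups covered the same range. It took 47.7% to 52.0% of the RPM from this start in every library.

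The other circles from the 18.3 kb start ended further downstream. The circRNA ending at 278620822 (58.2 kb) stood at 6.55, 8.17, 10.5 and 8.48 RPM in the sham animals and 7.30, 8.50, 10.2 and 10.3 RPM in the injured animals, or 28.7% to 36.1% of the start. The circRNA ending at 278608643 (46.1 kb) was high in other animals, with 2.97, 2.11, 1.77 and 2.17 RPM in the sham animals and 2.39, 1.21, 1.71 and 1.84 RPM in the injured animals. It was highest in sham replicate 1 and lowest in mTBI replicate 2, and its share of the start ranged from 5.14% to 13.0%. The long circle ending at 278661960 (99.4 kb) stood at 0.930, 1.28, 2.02 and 1.28 RPM in the sham animals and 0.942, 1.16, 1.498 and 1.91 RPM in the injured animals. The remaining 7 circles of this start each averaged under 0.300 RPM.

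The 135.7 kb start (278698312) had 5 circRNAs and led the second set. Its summed level was 13.6, 13.7, 19.3 and 17.8 RPM in the sham animals and 10.5, 17.1, 19.3 and 20.5 RPM in the injured animals. Its leading circle, ending at 278749829 (187.3 kb), was the second most abundant of the locus, with 8.88, 8.51, 11.7 and 11.7 RPM in the sham animals and 6.70, 10.3, 11.6 and 12.4 RPM in the injured animals. It kept 60.1% to 66.0% of the start in every library. The circle ending at 278731755 (169.2 kb) stood at 2.88, 3.60, 5.82 and 4.29 RPM in the sham animals and 2.48, 4.94, 5.67 and 5.66 RPM in the injured animals, and was lowest in replicate 1 of both groups. The short circle ending at 278701866 (139.3 kb), 3555 bases long, stood at 1.42, 1.04, 0.841 and 1.006 RPM in the sham animals and 1.14, 0.900, 1.02 and 1.27 RPM in the injured animals. Starts at 278698269 and 278698316, within 43 and 4 bases of this start, gave 2 circRNAs each, to the ends at 169.2 and 187.3 kb, with no value above 0.104 RPM.

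**Figure D2:**
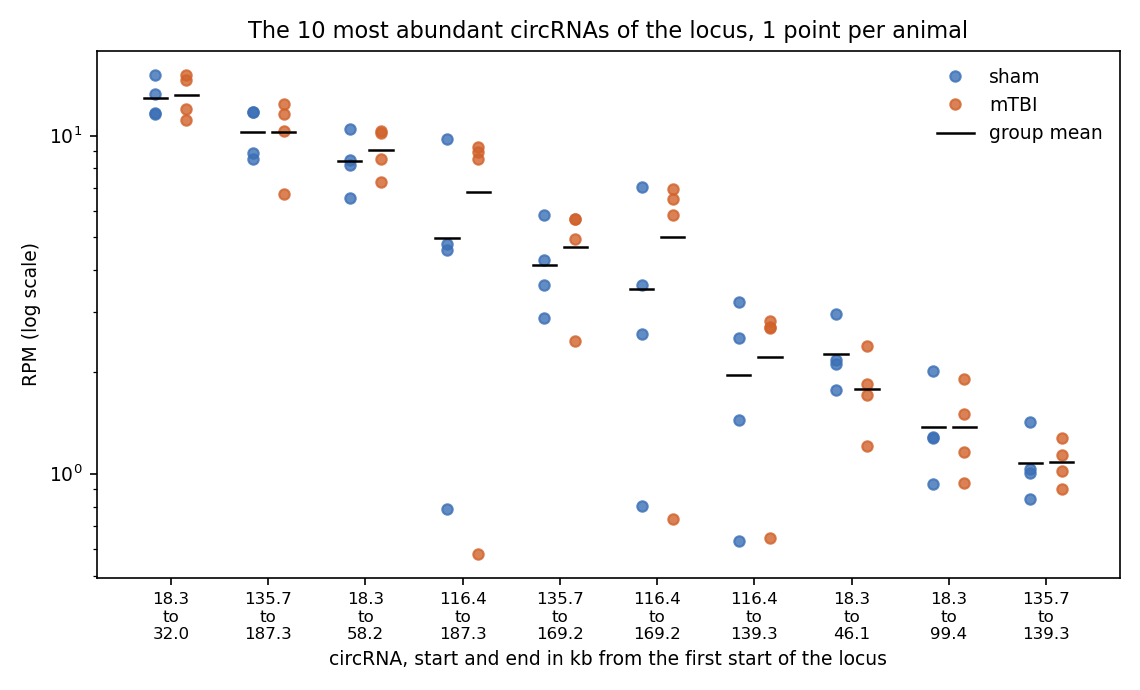
RPM (log axis) of the 10 most abundant circRNAs of the locus, 1 point per animal in sham and mTBI, with a bar at each group mean. Groups overlap for all 10, and the 3 circRNAs from the 116.4 kb start have 1 low point in each group.

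The 116.4 kb start (278679022) varied most between animals among the leading starts. Its 6 circRNAs together stood at 2.29, 11.2, 21.0 and 9.31 RPM in the sham animals and at 1.96, 18.7, 19.2 and 19.4 RPM in the injured animals. Sham replicate 1 and mTBI replicate 1 had the lowest levels, 2.29 and 1.96 RPM, sham replicates 4 and 2 came next at 9.31 and 11.2 RPM, and the other 4 libraries lay between 18.7 and 21.0 RPM. The highest value was 10.7 times the lowest, while the summed circRNA level of the libraries ranged only from 4966 to 5874 RPM. Its coefficient of variation, 60.8%, was the second highest of the 130 starts averaging at least 5 RPM. The 135.7 kb start had 21.2%. The 116.4 kb start gave 5.25% to 30.3% of the locus total, and without it the total stood at 39.1, 41.6, 50.9 and 44.4 RPM in the sham animals and 35.4, 43.1, 50.2 and 53.6 RPM in the injured animals.

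Its main circles were all lowest in the same animals. The circle to 278749829 (187.3 kb) stood at 0.788, 4.59, 9.76 and 4.80 RPM in the sham animals and 0.581, 9.27, 8.55 and 8.93 RPM in the injured animals. To 278731755 (169.2 kb) the levels were 0.801, 3.62, 7.03 and 2.59 RPM in the sham animals and 0.735, 5.81, 6.97 and 6.48 RPM in the injured animals. The circle to 278701866 (139.3 kb) stood at 0.633, 2.52, 3.22 and 1.44 RPM in the sham animals and 0.645, 2.70, 2.71 and 2.83 RPM in the injured animals. In all 3, replicate 1 of each group was lowest, and the highest library had 5.09 to 16.8 times the level of the lowest. The circle to 278773472 (210.9 kb) stood at 0.0388, 0.485, 0.957 and 0.477 RPM in the sham animals, at 0 in mTBI replicate 1 and at 0.913, 0.990 and 1.21 RPM in the other mTBI libraries.

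**Figure D3:**
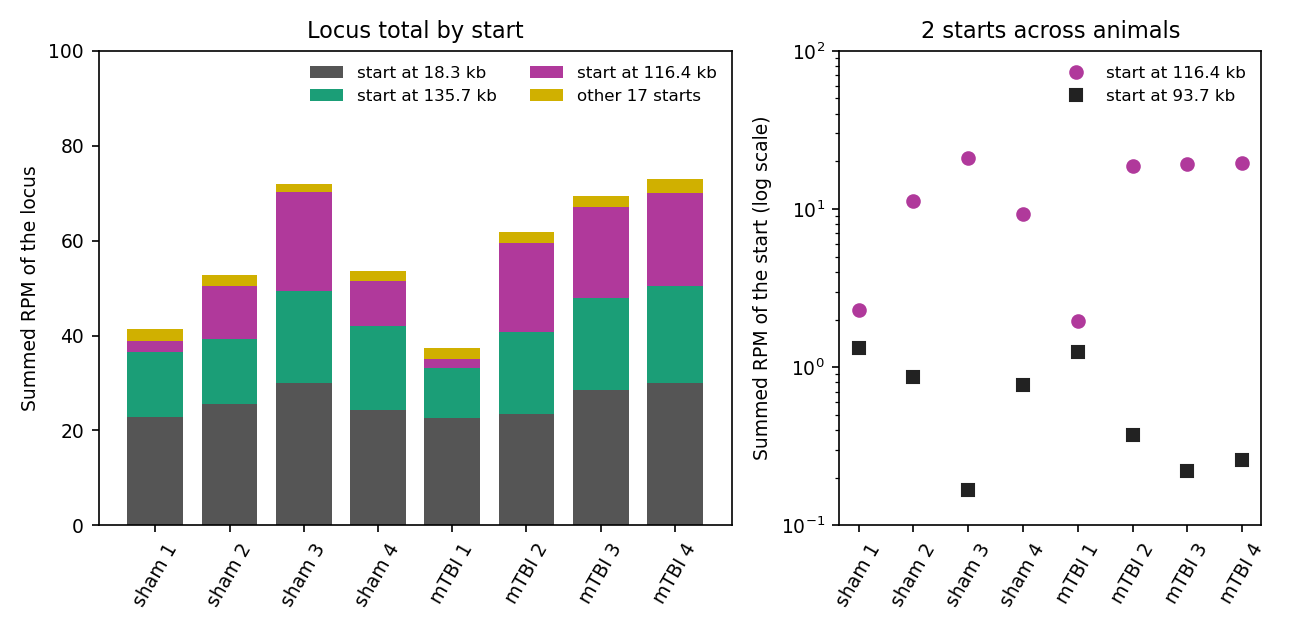
Left, summed RPM of the locus in each library, stacked by start. Right, summed RPM (log axis) of the starts at 116.4 and 93.7 kb in each library. The 116.4 kb start ranges from 1.96 to 21.0 RPM while the 18.3 kb start stays between 22.6 and 30.0 RPM, and the 93.7 kb start is highest in replicate 1 of each group.

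The 116.4 and 135.7 kb starts are joined to the same 4 ends, so their levels can be set against each other within a library, free of its scaling. At the end at 187.3 kb, the level from 116.4 kb was 0.0888, 0.539, 0.830 and 0.409 times that from 135.7 kb in sham and 0.0867, 0.898, 0.738 and 0.718 times in mTBI. At 169.2 kb the ratios were 0.278, 1.004, 1.21 and 0.604 in sham and 0.297, 1.18, 1.23 and 1.14 in mTBI. At 139.3 kb they ran from 0.445 in sham replicate 1 to 3.83 in sham replicate 3. Replicate 1 had the lowest ratio of its group at every one of the 4 ends. Which end the 116.4 kb start was joined to also varied, with 29.6% to 51.5% of its RPM in the circle to 187.3 kb. The circle to 139.3 kb held 14.1% to 32.9%, highest in replicate 1 of both groups. This was not particular to the 116.4 kb start. From 135.7 kb, the circle to 139.3 kb held 10.4% in sham replicate 1 and 10.8% in mTBI replicate 1, against 4.36% to 7.58% elsewhere. From 18.3 kb, the circle to 46.1 kb held 13.0% and 10.6% in the same 2 libraries, against 5.14% to 8.90% elsewhere.

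**Figure D4:**
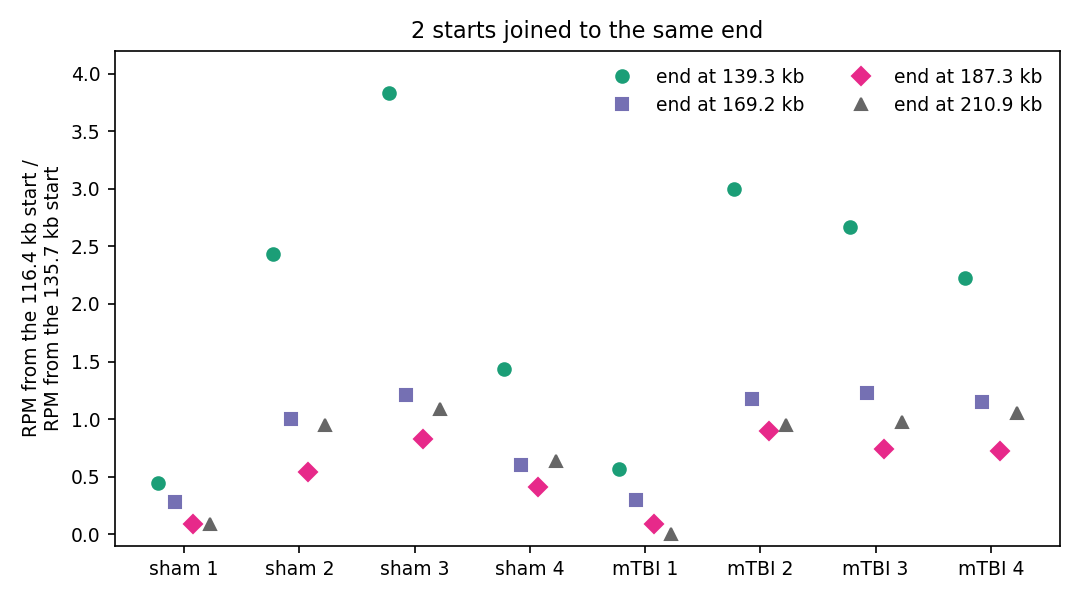
RPM of the circRNA from the 116.4 kb start divided by that of the circRNA from the 135.7 kb start with the same end (y axis, ratio), for 4 ends in each of 8 libraries. Sham 1 and mTBI 1 have the lowest ratios at each end, from 0 to 0.568.

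The start at 278656261 (93.7 kb) ran opposite to the 116.4 kb start at the extremes, but not in every library. Its 5 circRNAs summed to 1.32, 0.865, 0.168 and 0.774 RPM in the sham animals and to 1.24, 0.373, 0.221 and 0.260 RPM in the injured animals. It was highest in replicate 1 of both groups and lowest in sham replicate 3, where the 116.4 kb start was highest. Sham replicate 2 stood above sham replicate 4 at both starts, and mTBI replicate 4 above mTBI replicate 3. Most of the level from the 93.7 kb start came from the circle to 278731755 (169.2 kb). This circle had 0.995, 0.721, 0.168 and 0.606 RPM in the sham animals and 0.929, 0.283, 0.195 and 0.221 RPM in the injured animals. Since the animals form separate clusters at the 116.4 kb start, no correlation is given. The summed circRNA level of all loci was 5514 RPM in sham replicate 1 and 4966 RPM, the lowest of the 8 libraries, in mTBI replicate 1, and its part in these differences was not tested.

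The order of the 10 leading circRNAs was clear of the spread over animals in only some places. The gap in mean to the next in order was larger than both standard deviations between the first (18.3 to 32.0 kb, 13.1 ± 1.69 RPM, SD, n = 8) and the second (135.7 to 187.3 kb, 10.2 ± 2.02 RPM). It was also larger between the eighth (18.3 to 46.1 kb, 2.02 ± 0.524 RPM) and the ninth (18.3 to 99.4 kb, 1.38 ± 0.408 RPM). All other neighbours differed in mean by less than the larger of their standard deviations. Compared within libraries, the order held differently. The first was higher than the second in 7 of 8, as was the second than the third and the third than the fourth. The sixth was higher than the seventh (116.4 to 139.3 kb, 2.09 ± 1.03 RPM) in 8 of 8. The eighth, clear of the ninth by standard deviation, was higher than it in only 6 of 8. The fifth (135.7 to 169.2 kb, 4.42 ± 1.32 RPM) was higher than the sixth (116.4 to 169.2 kb, 4.25 ± 2.67 RPM) in 3 of 8 libraries.

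The main comparison of the study was injured against sham cortex. The locus total was 55.0 ± 12.6 RPM in the sham animals and 60.4 ± 16.1 RPM in the injured animals (SD, n = 4 each), which is 5.48 RPM more in mTBI (two-sided exact permutation p = 0.543, adjusted p = 0.771 over the 3 summary measures tested). Leaving out 1 library at a time moved this difference between 0.961 RPM, without sham replicate 1, and 13.2 RPM, without mTBI replicate 1. Without both libraries numbered 1 it was 8.66 RPM (exact permutation test, two-sided, p = 0.300), and without the 116.4 kb start 1.58 RPM (p = 0.771, exact permutation test). The number of circRNAs listed was 39, 34, 32 and 37 in sham and 33, 40, 34 and 38 in mTBI (exact permutation test, two-sided, p = 0.771). The most abundant circRNA held 24.0% ± 3.28 of the locus in sham and 22.7% ± 4.77 in mTBI (SD, n = 4 each, exact permutation test, two-sided, p = 0.657). With 4 animals per group this test cannot give a p below 0.0286.

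Of the 68 circRNAs, 34 were listed in at least 4 libraries and were tested with limma on log2(RPM + 0.0259), adjusted over all 20174 circRNAs tested. A single circRNA passed an adjusted p of 0.05, or 2.94% of the 34, against 0.0248% of all tested. It was listed in exactly 4 libraries, all of them mTBI, and so entered the tested set only through the group in which it is high. Its call and these shares are therefore given as a description and support nothing further. An unadjusted p under 0.05 was seen for the same 1 of 34, against 4.68% of all tested. No other tested member had groups without overlap (1 of 34, or 2.94%, against 2.81%), and for this one that follows from where it was listed. The log2 change was above 0 for 23 of the 34 (67.6%, against 48% of all tested), with a median of 0.16 against -0.02. These 34 share starts and ends and are not independent of each other, and for 24 of them the log2 change was smaller than 0.5 in either direction.

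The circRNA that passed ran from 278661823 to 278749829 (99.2 to 187.3 kb), spanning 88007 bases of the second set. It was not listed in any sham library, and it stood at 0.0387, 0.592, 0.482 and 0.584 RPM in mTBI replicates 1 to 4, or 3, 46, 37 and 45 reads if the smallest value is 2 reads. It ranked only nineteenth of the 68 by mean level, and it made up at most 0.956% of the locus in any library. This circRNA was known from the earlier analysis of the same data. Its call (limma adjusted p = 0.00462) was lost without the variance trend (0.275), with limma voom (0.297) and with a minimum mean of 0.13 RPM (0.437). The call was kept with 0.5 and 4 times the pseudocount (limma adjusted p = 0.0195 and 0.000606), with no filter, with centred libraries and with robust shrinkage. It was also kept without each sham library in turn. These kept calls are likewise given as description only. The fitted log2 change, which depends on the pseudocount because every sham library is at 0, did not shrink in the fits named above that lost the call. It was 3.69 without the trend and with the stricter minimum, as in the main design, and 5.52 with voom. Without any 1 of the mTBI libraries it was listed in only 3 and could not be tested.

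Its start and its end were used by other circles as well. From the same start, the circle to 278701866 had 0.0902 RPM in sham replicate 4 and 0.156 RPM in mTBI replicate 4, and that to 278731755 had 0.142 RPM in sham replicate 4 only. All circles from this start together stood at 0, 0, 0 and 0.232 RPM in the sham animals and 0.0387, 0.592, 0.482 and 0.740 RPM in the injured animals. That total did not pass among the 14652 starts tested (limma adjusted p = 0.293). It passed without mTBI replicate 1 (0.0156). It also passed without sham replicate 4 (0.0153), the only sham library with a value, after which the start was tested through mTBI libraries alone. The end at 278749829, used by 10 circRNAs, stood at 10.2, 13.8, 22.2 and 16.98 RPM in the sham animals and 7.86, 20.8, 21.2 and 22.8 RPM in the injured animals (limma adjusted p = 0.999995). In sham replicate 3 the end was thus as high as in mTBI replicates 2 to 4, although the circRNA itself was listed at 0 there.

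**Figure D5:**
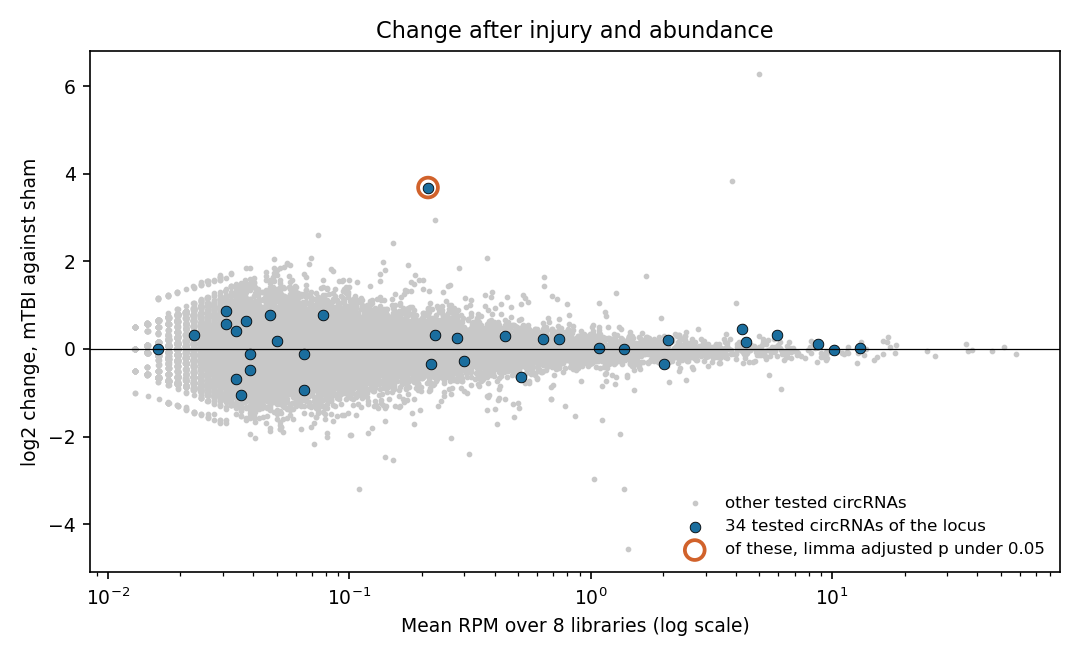
Fitted log2 change of mTBI against sham on log2(RPM + 0.0259) (y axis) by mean RPM over 8 libraries (log x axis), for the 34 tested circRNAs of the locus and all other tested circRNAs. The ringed circRNA, from 99.2 to 187.3 kb, is listed at 0 in all sham libraries, so its fitted height depends on the pseudocount.

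The 4 other members with the smallest unadjusted p missed the threshold. The circRNA from 278580846 to 278608643 given above had a log2 change of -0.35 (SE 0.19, limma unadjusted p = 0.0741, adjusted p = 0.973). From 278656261 to 278731755 the log2 change was -0.63 (SE 0.39, limma adjusted p = 0.973). Every mTBI library lay inside the range of sham, 0.168 to 0.995 RPM, with mTBI replicate 1 highest of its group at 0.929 RPM. The circRNA from 278687271 to 278731755 was listed at 0.0388 to 0.0774 RPM in all sham libraries and in mTBI replicate 2 only, at 0.0772 RPM (limma adjusted p = 0.973). The circRNA from 278580846 to 278645812 was listed in sham replicates 3 and 4 at 0.0259 and 0.0387 RPM and in all mTBI libraries at 0.0386 to 0.0649 RPM (limma adjusted p = 0.973).

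Summed by splice site, none of the 14 starts and 16 ends of the locus that could be tested passed (limma), against 0.0137% of starts and 0.0137% of ends in the whole table. An unadjusted p under 0.05 was seen for 1 start and 0 ends, against 4.76% of all starts and 4.65% of all ends. The 18.3 kb start stood at 25.7 ± 3.11 RPM in the sham animals and 26.2 ± 3.67 RPM in the injured animals, the 135.7 kb start at 16.1 ± 2.89 and 16.9 ± 4.44 RPM, and the 116.4 kb start at 10.9 ± 7.70 and 14.8 ± 8.59 RPM (SD, n = 4 each, limma adjusted p at least 0.994). For each of these 3 starts the spread within each group was larger than the difference between groups. Whether the circles of the locus changed unequally after injury was asked with limma diffSplice, and the locus did not pass (adjusted p = 0.918, against 0.0912% of loci called). The unadjusted diffSplice p was 0.0366, or 0.0161 with 0.5 times and 0.345 with 4 times the pseudocount. The circRNA from 278661823 to 278749829, listed in mTBI libraries only, was among the circles in this test.

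No circRNA of either strand crossed the limits of the locus or overlapped it from outside. The nearest on the same strand before it were 2 circRNAs that end at 278415032, 147544 bases away, the higher of them at 0.117 to 0.485 RPM. The nearest after it, from 279009043 to 279020852, lay 231394 bases away and was listed at 0.0260 RPM in mTBI replicate 4 only. No abundant locus followed the same course over animals closely. Of the 20 other loci averaging at least 20 RPM, the nearest in its centred log2 totals over the 8 libraries, a plus-strand locus of chromosome 7 (78122159 to 78574310), differed by a root mean square of 0.301. The median of the 20 was 0.335, hardly more.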

How the data were processed

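Back-splice junction levels were deposited by the authors as RPM values, 1 column per library, with chromosome, start, end and strand in the row names, per the file headers. Trimmomatic 0.36, DESeq and the build Rnor 6.0 are listed in the submitters' processing notes. The program that called the circRNAs is not given in the sources used here, nor is the aligner. In each library every listed value was a whole multiple (to 0.01 read) of a step equal to 0.5 times its lowest value, so that the lowest was read as 2 reads. This reading cannot be proven from the values.

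circRNAs listed in at least 4 of 8 libraries were tested across the whole table with limma 3.58.1 in R 4.3.3 (intensity trend, two-sided, Benjamini-Hochberg). The pseudocount was 0.0259 RPM, the median of the smallest values, and fold changes on this scale understate changes of low circRNAs. The same model was fitted to totals of all starts and of all ends, and diffSplice to loci of circRNAs joined by shared starts or ends. Single values were compared by exact permutation over 70 assignments. Python 3.11.15, numpy 2.4.6, pandas 2.3.3 and matplotlib 3.10.9 were used, and the fits were tested on simulated data.

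Samples were grouped by their titles. The members, the tests and the rule for named circRNAs (highest means, calls, groups without overlap, smallest p, shortest, longest, leading of the main starts and ends, nearest outside) were chosen with earlier results of these data known. The p-values treat the 4 libraries of a group as separate animals, as the labels describe them. Same-numbered libraries were not paired, since their deviations from the group means over all tested circRNAs correlated at -0.0036 to 0.0067. Low circRNAs weighed as much as abundant ones in this check, so a pairing limited to abundant circRNAs could go unseen. Alternatives covered the pseudocount, filter, scaling, variance model, test, locus definition, depth and left-out libraries.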

Additional observations from a re-analysis of the deposited data

Results flagged for a closer look

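In 50 groups of 4 libraries, covering the named circRNAs, the 3 leading starts and ends and the 3 summary measures, 11 had 1 library far from the other 3, with a gap above Dixon's 95% critical value. Chance gives about 1 in 20, or 2.5 of 50 independent groups, and these groups share circRNAs and are not independent. Where the other 3 libraries all stand at 0, any listed value is flagged, so the 1 in 20 does not apply. This holds for some of the 11, and their number is not read as an excess.

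In mTBI replicate 1, the 116.4 kb start (278679022) stood at 1.96 RPM against 18.7 to 19.4 RPM in the other mTBI libraries. Its circRNAs to 278749829 (0.581 RPM against 8.55 to 9.27 RPM) and to 278701866 (0.645 RPM against 2.70 to 2.83 RPM) stood apart there too. So did the end at 278749829, at 7.86 RPM against 20.8 to 22.8 RPM. In the same library the circRNA from 278656261 to 278731755 stood high, at 0.929 RPM against 0.195 to 0.283 RPM, and the most abundant circRNA held 29.8% of the locus against 19.4% to 21.0%.

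Other flags rest on low values. Alone of its group, mTBI replicate 2 listed the circRNA from 278687271 to 278731755, with 0.0772 RPM. For the circRNA from 278580846 to 278645812, mTBI replicate 4 had 0.0649 RPM and the rest of its group 0.0386 to 0.0391 RPM. The shortest circRNA (278601852 to 278603881) had 0.0517 RPM in sham replicate 1 and 0.0651 RPM in mTBI replicate 3, each alone of its group. The longest (278679022 to 278777648) had 0.0257 RPM in mTBI replicate 2 alone.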

How the results depend on the processing

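The 1 circRNA of the locus called was 0 with a minimum mean of 0.13 RPM, without the variance trend, with the replicate block (limma adjusted p = 0.189) and with limma voom, and 0 to 1 over the libraries left out in turn. Both libraries numbered 1 were left out together as an alternative chosen after seeing the data, as was the 116.4 kb start, and gave 0 circRNAs called, since the circRNA was then listed in 3 libraries. Starts and ends called were 0, but 1 with no filter, 0 to 1 over libraries left out and 1 without both libraries numbered 1, each time the start at 278661823. The adjusted p for unequal change, 0.918, was 0.0728 with the replicate block and 0.736 to 0.99997 without each library. No pairing was found by the correlations given above, and the block changed no other call. The planned edgeR test was not run, because the steps in the values start at 2 and not at 1 read.

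The difference in locus total kept its sign in every alternative run (0.961 to 13.2 RPM without each library). The difference in number listed, 0.75, was -0.0625 after thinning to 2895 reads, and -0.50 to 1.92 without each library. The difference in share of the most abundant circRNA, -1.28 percentage points, was -3.64 to 0.0869. Log2 changes of 9 of the 10 most abundant circRNAs changed sign without some library, none of them past the threshold. From the 18.3 kb start the ranges were -0.041 to 0.11 (to 278594581), -0.0024 to 0.22 (to 278620822) and -0.17 to 0.20 (to 278661960). From the 135.7 kb start they were -0.12 to 0.18 (to 278749829), -0.010 to 0.43 (to 278731755) and -0.086 to 0.16 (to 278701866). From the 116.4 kb start they were -0.40 to 1.29 (to 278749829), -0.11 to 1.24 (to 278731755) and -0.24 to 0.72 (to 278701866). Without both libraries numbered 1, the sign changed for the circles from 278698312 to 278749829 (0.11) and from 278580846 to 278661960 (-0.00016). The cause was not tested. Members near 2 reads cannot be told from absent ones at this depth.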
